A study of Mus musculus with 6 samples.

Results

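The genes of common gamma chain cytokine signalling were described in mouse thymus, from the cytokine Il7 through its receptor, kinases and STAT factors to the inhibitors that the pathway induces. The members were taken by name as Il7, Il7r, Il2rg, Jak1, Jak3, Stat5a, Stat5b, Socs1, Socs3 and Cish, with every probe set whose platform annotation gave exactly 1 symbol. This gave 17 probe sets of 9 genes, among 34958 probe sets of 18194 genes with 1 symbol. No probe set carried the symbol Il2rg in the annotation used here, so the common gamma chain itself was not analysed here.

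Thymus of adult F1 females from AKR/J and FVB/NJ parents (the AKR cross, 3 arrays) was set against that of adult F1 females from DBA/2J and FVB/NJ parents (the DBA cross, 3 arrays). All carried 1 FVB/NJ genome, so the crosses differ in the other parental genome. The question in the design text was how basal thymus expression differs with genotype. Whether the 3 arrays of a cross hold RNA of different mice is not said in the labels, and p-values here reflect the spread of these samples, which can be technical.

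As background, cytokines of this family signal through receptors that share the gamma chain encoded by Il2rg. Interleukin 7, made mainly by thymic epithelium, binds the receptor chain encoded by Il7r together with the gamma chain, and the kinases JAK1 and JAK3 bound to these chains activate the transcription factors STAT5A and STAT5B. Active STAT5 induces survival genes and the inhibitors encoded by Cish, Socs1 and Socs3, which damp the signal in turn. In the thymus Il7r is expressed by early CD4-CD8- thymocytes, is low in CD4+CD8+ thymocytes and returns in mature single-positive cells.

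All members with a promoter window were searched for the STAT binding motif and for an interferon response core, and the stretches that hold a match are shown. Promoter windows ran from 250 bases before to 50 after the annotated start (RefSeq, GRCm38.p6), and 9 members, Il2rg included, had 11 windows. The palindromic STAT motif TTCNNNGAA, the same on both strands, occurred in the windows of Cish (2 matches), Socs3 (1) and Il7r (1). It occurs in 8.30% of all 32851 windows. The interferon response core GAAANNGAAA, searched on both strands, was found in the Socs1 window alone among the members, as 2 matches that overlap by 4 bases, and in 3.44% of all windows. In the lines below, capitals mark the matches.
Cish, plus strand, chr9:107296619-107296683: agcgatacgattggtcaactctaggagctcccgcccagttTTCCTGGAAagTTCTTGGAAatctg
Socs3, minus strand, chr11:117969472-117969560: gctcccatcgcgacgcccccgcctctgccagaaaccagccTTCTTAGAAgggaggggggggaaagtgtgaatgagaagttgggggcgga
Il7r, minus strand, chr15:9529970-9530058: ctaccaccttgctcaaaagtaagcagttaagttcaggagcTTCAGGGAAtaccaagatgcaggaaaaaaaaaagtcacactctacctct
Socs1, minus strand, chr16:10785564-10785659: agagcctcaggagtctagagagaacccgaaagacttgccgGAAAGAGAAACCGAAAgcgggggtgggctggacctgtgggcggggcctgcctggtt
These are matches of letters in C57BL/6J sequence, and no binding was measured.

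Across the members, Il7r was lower and Socs1, Stat5a and Jak3 were higher in the AKR cross, while Il7, Jak1, Stat5b, Socs3 and Cish gave no call on any probe set. Values are on the deposited log2 scale, and a difference is AKR cross minus DBA cross with its standard error (SE). The call rule was an adjusted p under 0.05 in limma, adjusted by Benjamini-Hochberg over all 27385 tested probe sets. All 17 member probe sets passed the filter on low values. At an unadjusted p under 0.05 limma had 8 of the 17, against 40.2% of all tested probe sets. Of all 17, 6 were called, 4 higher and 2 lower in the AKR cross, against 27.2% of all tested probe sets (12.2% higher and 15.0% lower in the AKR cross). The 3 arrays of the AKR cross did not overlap with the 3 of the DBA cross for 8 member probe sets, 4 in each direction, against 44.7% of all tested probe sets (22.4% with the AKR cross higher and 22.3% with the DBA cross higher). The median member difference was -0.06, beside 0.01 over all tested probe sets, and the median size without sign was 0.16, beside 0.18. The share without overlap and the median size are near those of the whole array. The share called higher in the AKR cross (4 of 17) was above the 12.2% of the array, on few probe sets. The calls lie in 4 genes.

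**Figure D1:**
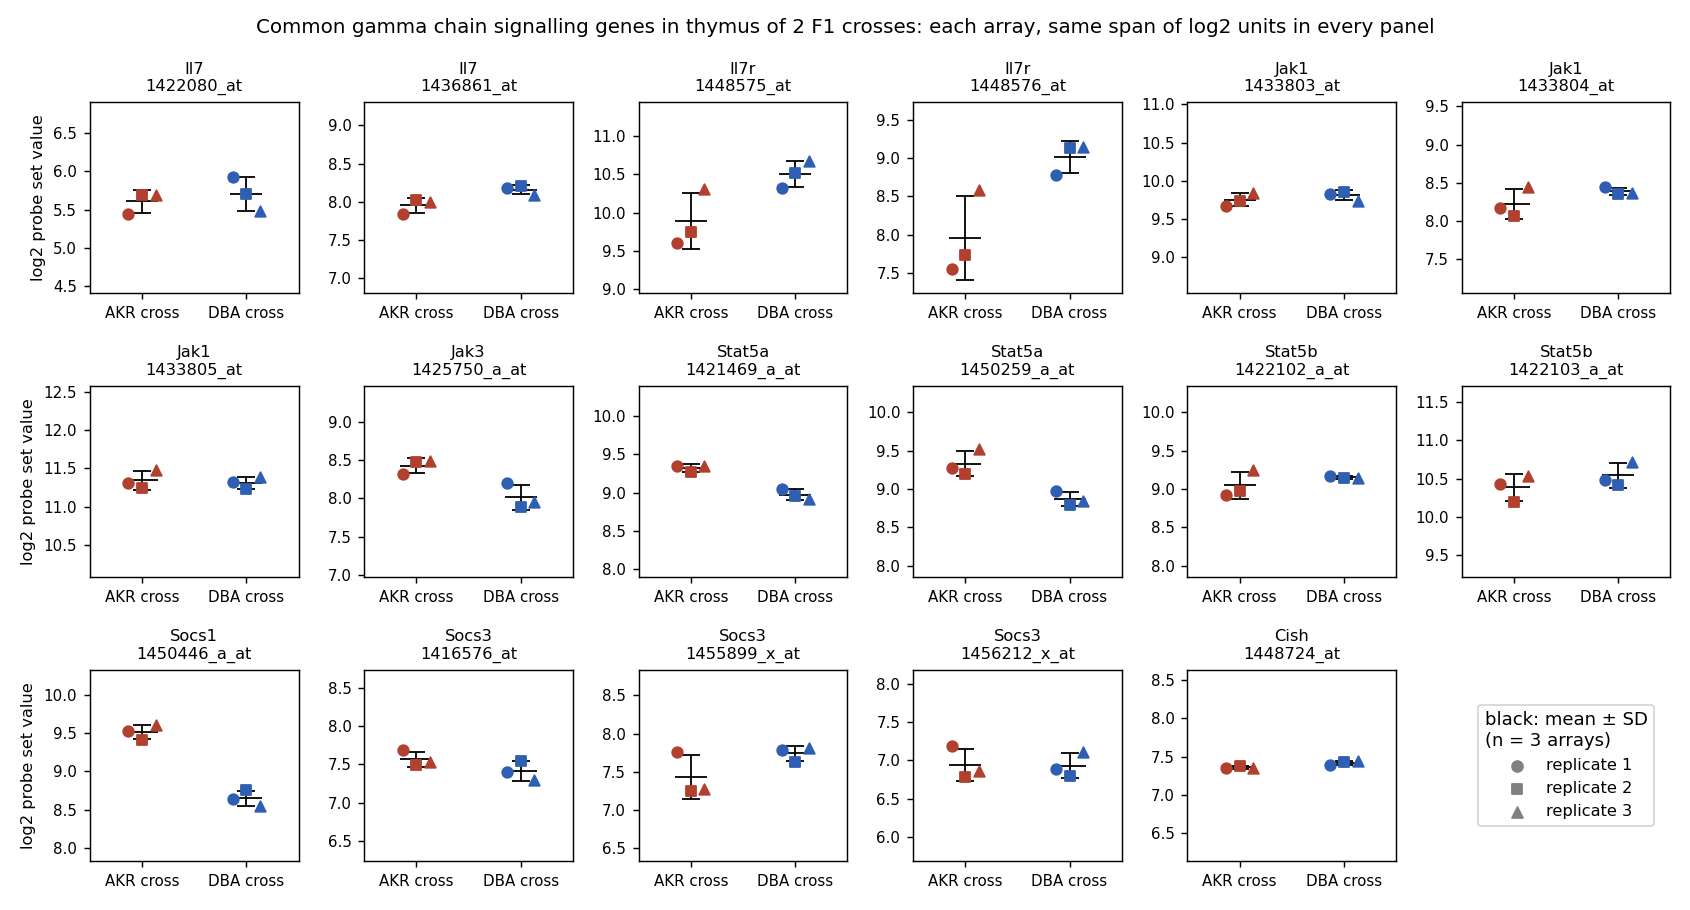
Log2 value (y axis) of each of the 17 member probe sets on each array, with the AKR cross in red on the left and the DBA cross in blue on the right of every panel, point shape for the replicate number, and black bars for the mean ± SD of 3 arrays. Every panel spans the same number of log2 units, and Il7r is lower while Socs1, Stat5a and Jak3 are higher on all 3 AKR arrays than on any DBA array.

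The ligand gene Il7 was measured by a pair of probe sets. Probe set 1436861_at read between 7.84 and 8.02 on the 3 AKR arrays, against 8.18, 8.21 and 8.09 on the DBA arrays. The groups did not overlap, with the AKR arrays lower, yet the difference of -0.21 ± 0.09 did not pass (adjusted p = 0.104, limma). The dimmer probe set 1422080_at read 5.44, 5.70 and 5.70 on the AKR arrays, against 5.93, 5.71 and 5.49 on the DBA arrays. There the groups overlapped, and the difference was -0.10 ± 0.13 with a 95% interval from -0.40 to 0.21.

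Il7r, which encodes the interleukin 7 receptor alpha chain, was the member with the widest difference, and both of its probe sets were called. Probe set 1448576_at read 7.55, 7.74 and 8.58 on the AKR arrays, against 8.77, 9.13 and 9.14 on the DBA arrays. The mean was 7.95 ± 0.55 for the AKR cross, against 9.01 ± 0.21 for the DBA cross (SD, n = 3 each), so Il7r was 2.09-fold lower in the AKR cross. The log2 difference was -1.06 ± 0.23 (SE, adjusted p = 0.0100, limma), and 2.41% of tested probe sets had a wider one. The brighter probe set 1448575_at read 9.61, 9.75 and 10.30 on the AKR arrays, against 10.32, 10.52 and 10.67 on the DBA arrays. Its difference was smaller, at -0.62 ± 0.16 or 1.53-fold (adjusted p = 0.0222, limma).

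Both Il7r probe sets placed the 6 arrays in the same order, with AKR replicate 1 lowest and DBA replicate 3 highest. Within each cross Il7r rose with the replicate number, from 1 through 2 to 3. In a fit with the replicate number as a block, the adjusted p was 0.00029 on 1448576_at and 0.00035 on 1448575_at (limma). What the replicate number stands for was not tested. AKR replicate 3 stood well above the other AKR arrays, and on 1448575_at it lay only 0.02 log2 units below the lowest DBA array (0.20 on 1448576_at). The AKR arrays spanned 1.03 log2 units on 1448576_at and the DBA arrays 0.37. Without AKR replicate 3 the differences were -1.37 on 1448576_at and -0.82 on 1448575_at. The call on 1448576_at held in all 16 alternative settings. The call on 1448575_at was lost in 5 of 16, namely under robust eBayes (adjusted p = 0.0512, limma) and when AKR replicate 1 (0.0608), AKR replicate 2 (0.0792), DBA replicate 2 (0.0676) or DBA replicate 3 (0.0824) was left out. In whole thymus, fewer cells with Il7r and less Il7r RNA per cell cannot be told apart.

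The mean level of markers of mature single-positive thymocytes rose with Il7r across the AKR arrays, but the single markers differed in direction. The mean of 7 tested marker genes was 8.50, 8.67 and 8.92 on the AKR arrays, against 8.95, 9.01 and 8.99 on the DBA arrays, so AKR replicate 3 was again the AKR array nearest to the DBA cross. Of these 7 genes, 3 were lower and 1 was higher in the AKR cross, and 3 were not called. The uncalled ones were Ccr7 (-0.40 ± 0.25), S1pr1 (0.23 ± 0.16) and Itgb7 (0.17 ± 0.09), given here after their values were seen. Slfn1, a Schlafen gene of T cells, differed by -1.36 ± 0.12 and Ms4a4b, a membrane protein gene of mature T cells, by -0.71 ± 0.10. The called gene that went the other way was Klf2 (0.37 ± 0.10), a transcription factor gene of thymocyte exit, named after its value was seen. Markers of innate-like T cells, which also express Il7r, had a mean of 8.21, 8.34 and 8.35 on the AKR arrays, against 9.10, 9.04 and 9.03 on the DBA arrays. Of their 7 tested genes, 5 were lower in the AKR cross, with Zbtb16, the gene of the factor PLZF, at -2.09 ± 0.12. The uncalled ones were Il17rb (-0.27 ± 0.10) and Nkg7 (0.20 ± 0.13), given here after their values were seen. All AKR means of this list lay below all DBA means. Early thymocyte markers, the other stage that expresses Il7r, had 2 of 8 tested genes higher in the AKR cross and none lower (limma, 1 lower at an unadjusted p under 0.05), with means of 7.62, 7.72 and 7.70 on the AKR arrays against 7.60, 7.60 and 7.52 on the DBA arrays. The part of any of these marker levels in the Il7r difference was not tested.

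**Figure D2:**
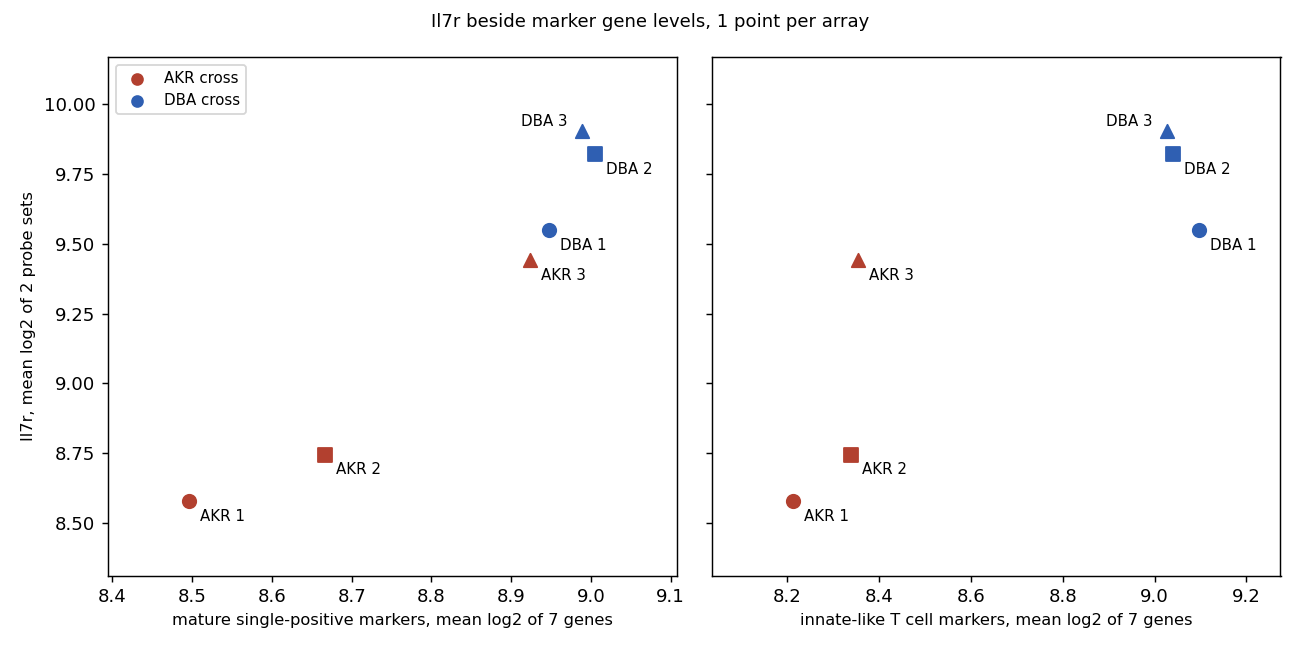
Mean log2 value of the 2 Il7r probe sets (y axis) against the mean log2 value of 7 mature single-positive markers (left, x axis) and of 7 innate-like T cell markers (right, x axis), with 1 point per array, the AKR cross in red and the DBA cross in blue. On the left AKR replicate 3 (8.92) lies beside DBA replicate 1 (8.95), and on the right the AKR arrays end at 8.35 and the DBA arrays begin at 9.03.

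Of the receptor kinases, Jak3, whose product binds the common gamma chain, was higher in the AKR cross. Probe set 1425750_a_at read 8.32, 8.47 and 8.49 on the AKR arrays, against 8.20, 7.89 and 7.95 on the DBA arrays. All AKR arrays lay above all DBA arrays, by a narrow margin at DBA replicate 1. The difference was 0.41 ± 0.10, or 1.33-fold (adjusted p = 0.0156, limma). Leaving out any of 4 arrays ended the call, with adjusted p = 0.0526 for AKR replicate 2, 0.0503 for AKR replicate 3, 0.0612 for DBA replicate 2 and 0.0526 for DBA replicate 3 (limma), and the difference stayed between 0.35 and 0.50. A further probe set annotated to both Jak3 and its neighbour Insl3 lay outside the rule and differed by 0.17 ± 0.08 (adjusted p = 0.164, limma).

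Jak1, the kinase bound to the Il7r chain, gave no call on 3 probe sets. Its brightest, 1433805_at, read 11.30, 11.25 and 11.48 on the AKR arrays, against 11.32, 11.23 and 11.39 on the DBA arrays. The arrays of the crosses were interleaved, and the 95% interval of the difference ran from -0.13 to 0.19. The other Jak1 probe sets differed by -0.06 ± 0.07 (1433803_at) and -0.16 ± 0.10 (1433804_at), with intervals that reached -0.21 and -0.40 at the lower end.

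Stat5a was higher in the AKR cross on both probe sets, and Stat5b, its neighbour and close paralog, was called on neither. Stat5a probe set 1450259_a_at read 9.27, 9.20 and 9.52 on the AKR arrays, against 8.97, 8.79 and 8.84 on the DBA arrays. The difference was 0.46 ± 0.10, or 1.38-fold (adjusted p = 0.00786, limma). The second Stat5a probe set, 1421469_a_at, read 9.35, 9.26 and 9.35 on the AKR arrays, against 9.05, 8.96 and 8.92 on the DBA arrays. The groups were apart on both, and the second differed by 0.35 ± 0.07, or 1.27-fold (adjusted p = 0.00734, limma). Both Stat5a calls held in all 16 alternative settings.

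Stat5b probe set 1422103_a_at read 10.43, 10.20 and 10.53 on the AKR arrays, against 10.49, 10.42 and 10.72 on the DBA arrays. Probe set 1422102_a_at read 8.92, 8.98 and 9.25 on the AKR arrays, against 9.17, 9.14 and 9.14 on the DBA arrays. The groups overlapped on both, and the differences were -0.16 ± 0.10 and -0.10 ± 0.09. Their 95% intervals ended at 0.08 and 0.11, below the Stat5a differences. A direct contrast of the 2 genes was not among the planned tests. In it the Stat5a difference exceeded the Stat5b difference by 0.53 log2 units (mean of each gene's 2 probe sets), and every AKR array lay above every DBA array. The exact permutation test over the arrays gave p = 0.10 (two-sided, n = 3 each), the smallest that 3 against 3 can give.

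Among the inhibitors, Socs1, which encodes a protein that blocks JAK kinases and is induced by gamma chain cytokines and interferon, was 1.82-fold higher in the AKR cross. Probe set 1450446_a_at read 9.52, 9.41 and 9.60 on the AKR arrays, against 8.64, 8.75 and 8.55 on the DBA arrays. The crosses were far apart compared with the spread within each, at 9.51 ± 0.09 for the AKR cross, against 8.65 ± 0.10 for the DBA cross (SD, n = 3 each). The difference was 0.87 ± 0.08 (SE, adjusted p = 0.000135, limma), wider than all but 3.65% of tested probe sets. It stayed between 0.82 and 0.92 and kept its call in all 16 alternative settings. Socs1 rests on 1 probe set, and whether AKR/J or DBA/2J sequence variants lie under its probes was not checked. Its window held no STAT motif of the kind shown above.

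The other inhibitor members, Cish and Socs3, gave no call. Both held the STAT motif, as did Il7r, which was called. The part of the motif in any difference was not tested. Cish, which encodes an inhibitor of STAT5 recruitment and held a pair of matches at its start, read 7.35, 7.38 and 7.35 on the AKR arrays, against 7.39, 7.43 and 7.44 on the DBA arrays. All AKR arrays were lower, but the difference was -0.06 ± 0.08 (adjusted p = 0.629, limma), and its 95% interval ran from -0.24 to 0.12. Socs3, whose product inhibits receptors of the interleukin 6 family and is also induced by STAT5, had 3 probe sets that disagreed. Probe set 1416576_at read 7.68, 7.49 and 7.53 on the AKR arrays, against 7.40, 7.54 and 7.29 on the DBA arrays (0.15 ± 0.10). Probe set 1455899_x_at read 7.76, 7.25 and 7.27 on the AKR arrays, against 7.78, 7.63 and 7.82 on the DBA arrays (-0.31 ± 0.14, adjusted p = 0.122, limma). The groups overlapped on both. The x in the second name marks a design that can hybridise to other transcripts. On that probe set AKR replicate 1 alone reached the DBA level, and without it the difference was -0.48 and passed (adjusted p = 0.0130, limma). The third, 1456212_x_at, differed by 0.01 ± 0.13.

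**Figure D3:**
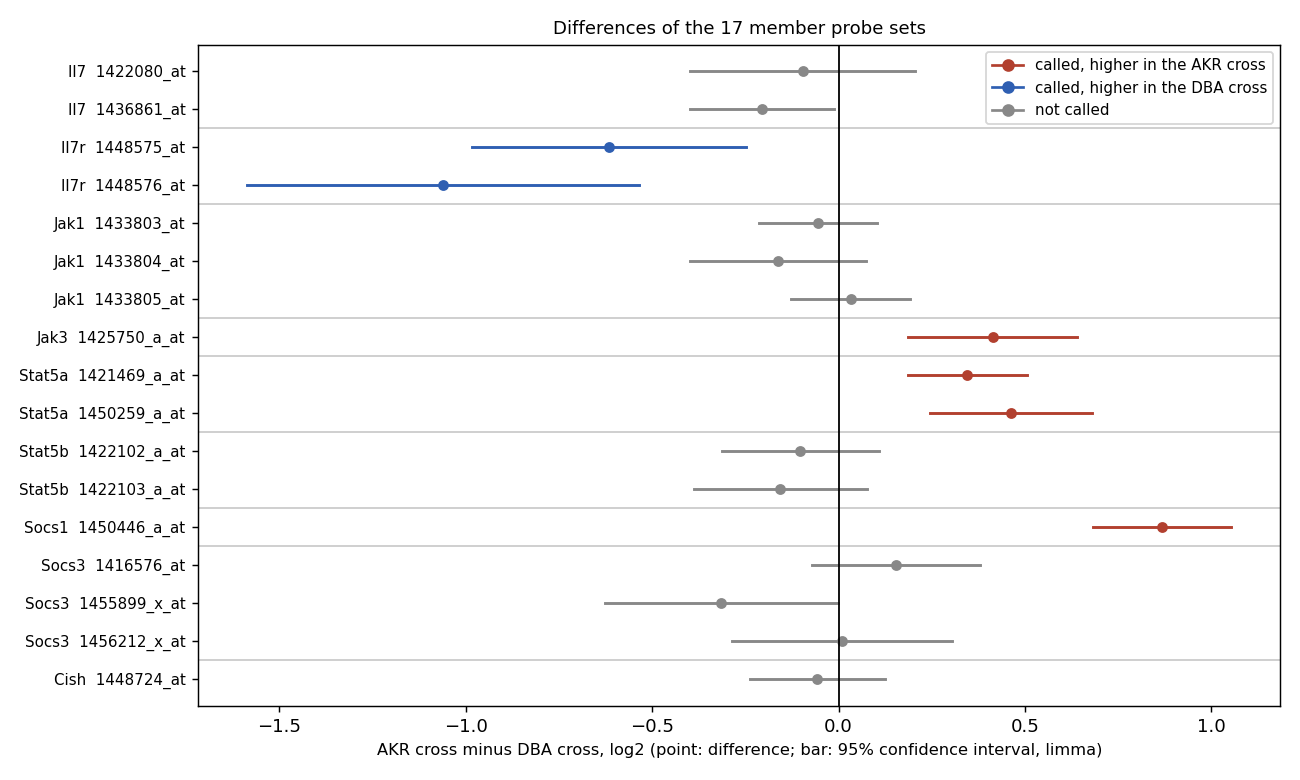
Difference in log2 units (x axis, AKR cross minus DBA cross) of the 17 member probe sets (y axis, grouped by gene), with points for the difference and bars for the limma 95% confidence interval, red where called higher in the AKR cross, blue where called higher in the DBA cross and grey where not called. Both Il7r probe sets lie left of 0, Jak3, both Stat5a probe sets and Socs1 lie right of 0, and the rest are grey.

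The rest of the pathway was described from 7 lists of 49 genes, of which 43 had a tested probe set, each gene by its brightest one. Of these 43, 5 were higher and 4 were lower in the AKR cross, against 25.0% of all 12855 genes so represented (13.1% higher and 11.9% lower in the AKR cross). By the same measure 3 member genes were higher and 1 was lower among 9. The median difference of the 43 genes was -0.05, beside 0.03 over all genes.

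Among the other ligands, Il4, a cytokine of innate-like and helper T cells, was called, and 3 of 6 listed genes were tested. Il4 read 4.75, 4.79 and 4.82 on the AKR arrays, against 5.91, 6.39 and 5.69 on the DBA arrays, a difference of -1.21 ± 0.16 (adjusted p = 0.000910, limma). The crosses were well apart, but on every AKR array Il4 lay under the 40th percentile used as the filter on low values. Il4 was tested only because the DBA arrays lay above that percentile. Its call therefore depends on the group where it is high, and the size is not exact. Innate-like T cell markers, given above, were lower in the AKR cross too, and their part in the Il4 difference was not tested. None of 6 other receptor chains was called in either direction by limma, and 1 of 6 had an unadjusted p under 0.05. The smallest adjusted p among them were those of Il21r (-0.21 ± 0.09, adjusted p = 0.108, limma) and Crlf2, a receptor chain for TSLP (-0.17 ± 0.08, adjusted p = 0.152, limma). Neither Jak2 (-0.12 ± 0.07) nor Tyk2 (-0.04 ± 0.08), the other kinases of the family, was called by limma on its brightest probe set, and 0 of the 2 had an unadjusted p under 0.05. The other Jak2 probe set was called lower in the AKR cross (-0.30 ± 0.08, adjusted p = 0.0285, limma).

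Of 4 other tested STAT genes, 2 were higher in the AKR cross. Stat4, which transmits interleukin 12 signals, read 7.69, 7.58 and 7.92 on the AKR arrays, against 7.39, 7.19 and 6.98 on the DBA arrays (0.54 ± 0.13, adjusted p = 0.0138, limma). The groups did not overlap. Stat3, a neighbour of Stat5a and Stat5b on chromosome 11, differed by 0.19 ± 0.05 (adjusted p = 0.0330, limma), but none of its 3 other probe sets passed and the call was lost in 7 of 16 settings. Of 11 further inhibitors, 1 was higher and 2 were lower in the AKR cross. These were Pias1 (0.35 ± 0.08), a SUMO ligase gene whose 3 other probe sets differed the opposite way and were not called, Socs7 (-0.29 ± 0.08), which lost its call in 5 of 16 settings, and Ptprc (-0.19 ± 0.06), the CD45 phosphatase gene, which lost it in 6 of 16. The other Ptprc probe set was called in the same direction (-1.10 ± 0.27, adjusted p = 0.0148, limma). Ptpn2, Pias3 and Sh2b3, given here after their values were seen, were not called on the brightest probe set. Of their other probe sets, 2 of 2 for Ptpn2 were called lower in the AKR cross. For Pias3 and for Sh2b3, 1 of 1 was called higher.

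Of 9 other targets of STAT5, Ccnd3, a cyclin gene of thymocyte expansion, alone was called on the brightest probe set, at 0.43 ± 0.08 (adjusted p = 0.00368, limma). Its probe sets disagreed, since another was called at -0.93 ± 0.16 and the third at 0.60 ± 0.17. The survival gene Bcl2 differed by 0.01 ± 0.08 on its brightest probe set and Mcl1 by -0.13 ± 0.05 (adjusted p = 0.0787, limma), both given here after their values were seen. Of 4 other Bcl2 probe sets, 1 was called higher in the AKR cross (0.74 ± 0.19, adjusted p = 0.0207, limma). Ccnd2 and Bcl2l1, also given after their values were seen, were not called where they were brightest. Of other Ccnd2 probe sets, 3 of 5 were called lower in the AKR cross, and of other Bcl2l1 probe sets, 1 of 2 higher.

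Among 8 tested regulators of Il7r transcription, 1 was higher and 1 was lower in the AKR cross on the brightest probe set. Nr3c1, Ets1 and Runx1, given here after their values were seen, were not called there. Of their other probe sets, 4 of 4, 3 of 3 and 1 of 5 were called, all lower in the AKR cross. Foxp1, which in mouse T cells represses Il7r, read 10.53, 10.73 and 10.73 on the AKR arrays, against 9.63, 9.63 and 9.75 on the DBA arrays. The crosses were far apart, and the difference of 0.99 ± 0.07 was 1.99-fold (adjusted p = 3.71e-05, limma). The 8 Foxp1 probe sets did not agree, since 4 were called higher in the AKR cross, between 0.67 and 1.07, and the other 4 were not called, between -0.28 and 0.07. Gabpa, which encodes a subunit of the Il7r activator GABP, read 9.76, 9.75 and 9.70 on the AKR arrays, against 10.09, 10.03 and 10.19 on the DBA arrays. The difference was -0.37 ± 0.07 (adjusted p = 0.00377, limma), and its other probe set was called in the same direction (-0.32 ± 0.08). Foxo1, an activator of Il7r given here after its values were seen, was not called where it was brightest (-0.17 ± 0.07, adjusted p = 0.104, limma). Of 2 other Foxo1 probe sets, 1 was called, in the opposite direction (0.36 ± 0.09, adjusted p = 0.0191, limma). Foxp1 and Gabpa held their calls in all 16 alternative settings. Their part in the Il7r difference was not tested.

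**Figure D4:**
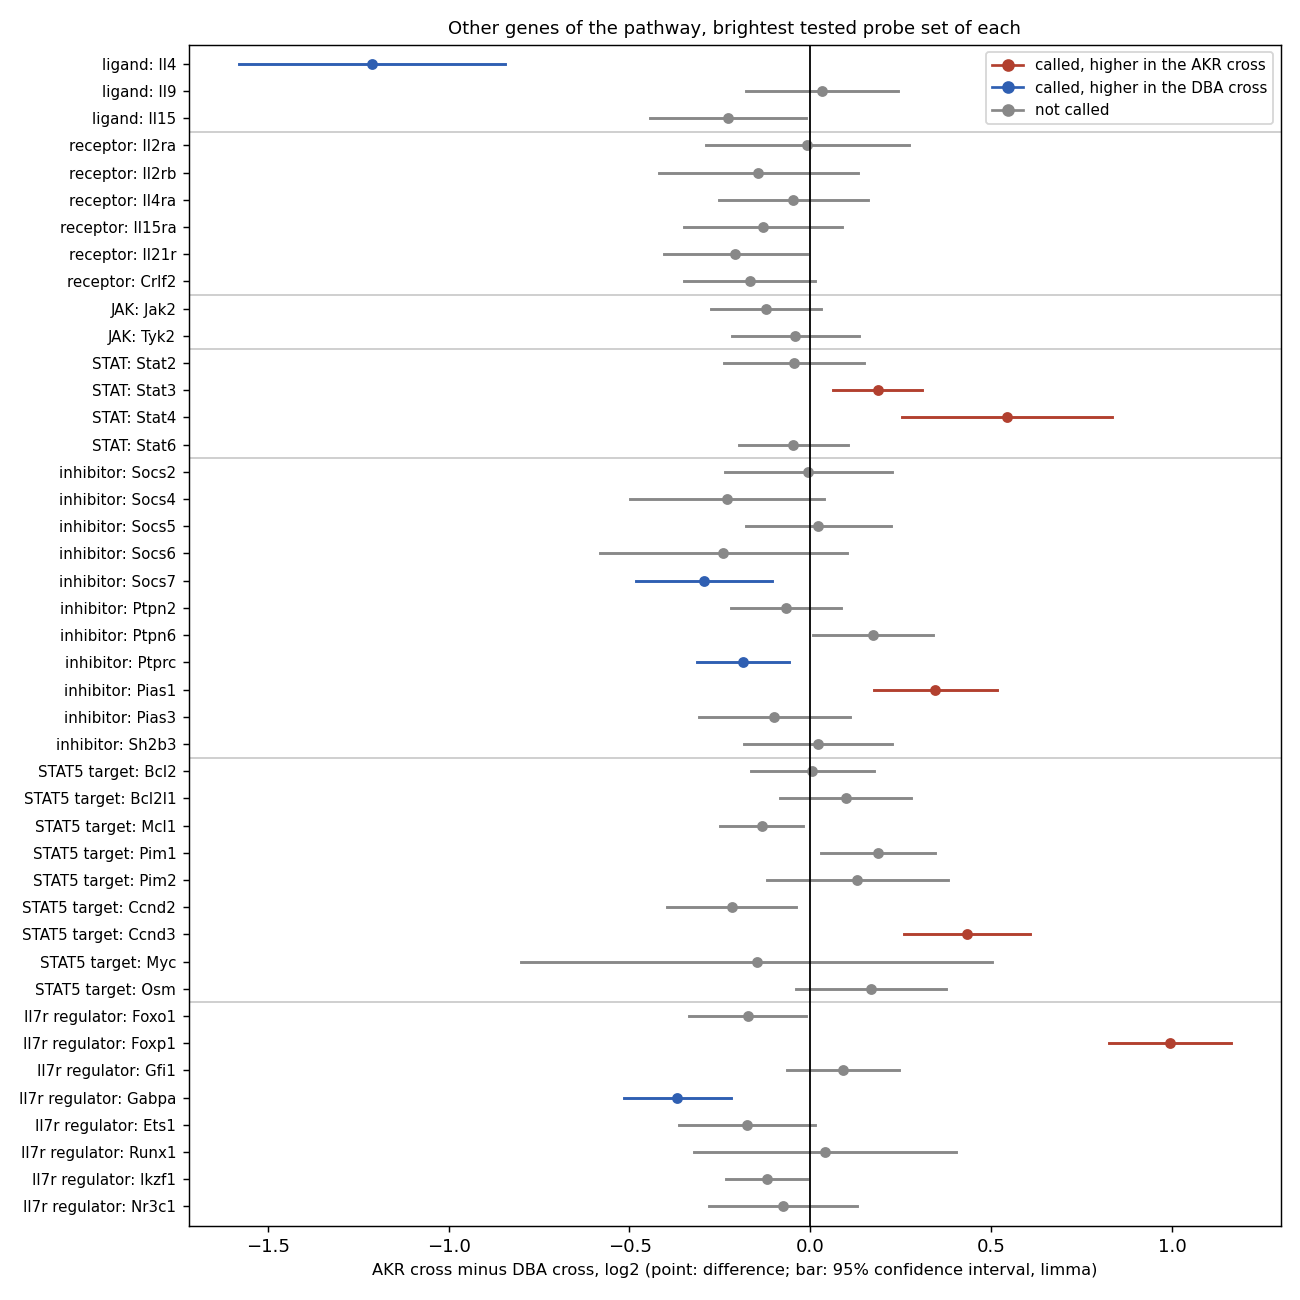
Difference in log2 units (x axis, AKR cross minus DBA cross) of 43 other genes of the pathway (y axis, grouped by role), each by its brightest tested probe set, with points for the difference and bars for the limma 95% confidence interval, red where called higher in the AKR cross, blue where called higher in the DBA cross and grey where not called. Foxp1 (0.99) stands at the right and Il4 (-1.21) at the left, and Il4 passed the filter on low values through the DBA arrays alone.

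Each array held 45101 probe sets with a median between 5.92 and 5.95, and the number of arrays limits the precision. General thymocyte markers were bright in both crosses, with list means from 12.25 to 12.38 on the AKR arrays and from 12.12 to 12.17 on the DBA arrays, as the tissue label has it. Cortical epithelial markers had 3 of 8 tested genes higher in the AKR cross, and medullary epithelial markers had 1 higher and 6 lower among 9. Both kinds of epithelium can make Il7, and their part in the Il7 values was not tested. Markers of B cells, which also express Socs1 and Stat5a, had 5 of 7 tested genes higher in the AKR cross and none lower (limma, 0 lower at an unadjusted p under 0.05), with list means from 7.42 to 7.53 on the AKR arrays and from 6.93 to 7.10 on the DBA arrays. Of these 5, Cr2 and Pax5 lay above the filter percentile on 3 AKR arrays but on 1 DBA array each. Their calls therefore depend on the group where they are high. Pax5 is named after its values were seen. The part of the B cell markers in the Socs1 and Stat5a differences was not tested. Muscle markers ran from 5.80 to 7.44 on the AKR arrays and from 5.98 to 10.04 on the DBA arrays, highest on DBA replicate 1, without which 6 member probe sets were called.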

How the data were processed

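The authors measured snap-frozen thymus, extracted with Trizol, on single-channel Affymetrix arrays with standard Affymetrix labelling, per the labels' protocols. They deposited log2 values per probe set. Per the submitters' processing notes the tools were MAS5 and RMA, with no role or version, and no source used here says which made the log2 values. The values ran from 2.47 to 14.4. They were used as deposited. The 64 control probe sets were left out, and the remaining ones were tested if above the 40th percentile of their array on at least 3 of 6 arrays (27385 probe sets). Symbols came from the platform annotation, and all 17 member probe sets matched the RefSeq table (GRCm38.p6) by Entrez identifier. Whether sequence variants of the parental strains lie under the probes was not checked for any probe set. The crosses were compared two-sided by limma 3.58.1 (R 4.3.3; lmFit, then eBayes with a trend), p-values were adjusted by Benjamini-Hochberg over all tested probe sets, and the fit was tested on simulated data. Python 3.11.15 with matplotlib 3.10.9 drew the figures.

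The members, the lists and the tests were chosen with earlier results of these data known. The text names all members, every called gene of the pathway lists (up to 2 genes as values where none was called) and some of the called markers with the 2 smallest adjusted p of a list. A gene outside this rule is marked where it stands. The alternatives were 2 filters, 3 normalizations, a floor at the 20th percentile, 2 variance models, array weights, a fit with the replicate number as a block, leaving out single arrays, gene means over probe sets, and a count without probe sets of the _s_at, _x_at and _a_at designs.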

Additional observations from a re-analysis of the deposited data

How the results depend on the processing

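Over 16 alternatives each, both Stat5a probe sets, Socs1 and Il7r 1448576_at kept direction and call, while Il7r 1448575_at lost its call in 5 and Jak3 in 4. The count of member probe sets called (6) was between 4 and 6 with 1 array left out. It was 2 when the _s_at, _x_at and _a_at designs were dropped. Those 2 were the Il7r calls, since the Jak3, Stat5a and Socs1 calls were all on _a_at probe sets. The uncalled Socs3 probe set 1455899_x_at passed without AKR replicate 1 and with the replicate block. Uncalled differences near 0 changed sign. With 1 array left out, Il7 1422080_at ran from -0.21 to 0.013, Jak1 1433805_at from -0.036 to 0.081 and Socs3 1456212_x_at from -0.11 to 0.098, and cyclic loess gave -0.016 for the last. The cause was not tested. Replicate numbers are shared by the crosses, and same-numbered arrays deviated together with r = 0.39, 0.07 and 0.37. For replicates 1 and 3 no array of the other cross correlated better. DBA replicate 2 was about as close to AKR replicate 3 (r = 0.07) as to AKR replicate 2. Whether arrays of a number share a batch or another source of spread was not tested. With the replicate block 7 member probe sets, 13 pathway genes and 9839 probe sets in all were called, against 6, 9 and 7449 without it. Leaving out 1 array gave 5161 to 6317 calls over the table and 6 to 9 pathway genes. Other scaling moved the median of all tested probe sets by under 0.1.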

Other observations

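The nearest tested genes beside the members were taken as 3 on each side in the RefSeq gene order. Of 54 such neighbours, 11 were higher and 4 were lower in the AKR cross. Some were counted beside both Stat5a and Stat5b, and these members were counted as neighbours of each other. The 11 therefore include Stat5a itself, and Stat3 beside both, and are not all separate genes. Over all tested genes the shares were 13.1% higher and 11.9% lower. The called neighbours of Stat5a (2), Socs3 (2) and Cish (1) were all higher, and those of Stat5b were 2 higher and 1 lower. The 2 higher beside Stat5b were Stat5a and Stat3. Next to Jak3 on chromosome 8, 3 of 6 neighbours were called, all higher in the AKR cross: Pgls (0.50 ± 0.07), Colgalt1 (0.37 ± 0.09) and Fcho1 (0.46 ± 0.07). Next to Socs1 on chromosome 16, none of 6 was called in either direction by limma, and 1 of 6 had an unadjusted p under 0.05. Next to Il7r on chromosome 15, Skp2 was higher (0.24 ± 0.08) and Nadk2 lower (-0.35 ± 0.10) in the AKR cross. Next to Il7 on chromosome 3, which was itself not called, Zc2hc1a (-0.80 ± 0.09) and Tpd52 (-0.39 ± 0.08) were lower in the AKR cross. The uncalled neighbours of Il7 went both ways, from -0.27 (Pkia) to 0.19 (Mrps28). These genes were looked up after the member values were seen.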
